A study of Homo sapiens with 8 samples.

Results

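E2F1 to E2F8 and their dimerization partners TFDP1 and TFDP2 were followed through a RIP-chip analysis of A431 cells, a human epidermoid carcinoma line used as a model of cutaneous squamous cell carcinoma. The 10 genes were chosen by name, and every probe that carried one of these symbols through its RefSeq accession was taken. This gave 15 of the 58201 probes of the array. All 10 genes had a probe well above background on all 8 arrays, so they were all among the 10959 genes that were measured. Cells received 10 nM of miR-NC, a control miRNA, or of miR-634 by transfection and were lysed after 24 h. RNA bound to AGO2 was immunoprecipitated (RIP) and compared with total RNA of the same cells (input), which gave 4 groups (input and RIP of either kind of cells) with 2 arrays each. The sample labels name a normal rabbit IgG antibody for the input arrays, whereas the methods of the study call them total RNA, and they are treated as total RNA here. No source says whether the arrays of a group came from separate transfections, so the p-values measure only the spread between these arrays, which may be technical.

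E2F proteins bind DNA as partners of a DP protein, encoded by TFDP1 or TFDP2, and switch on genes for DNA replication and cell division. In resting cells, the retinoblastoma protein and its relatives cover the activation domain of E2F and silence these genes. When cyclin-dependent kinases phosphorylate the pocket proteins, E2F is released and the cell enters S phase. E2F1, E2F2 and E2F3 are the activators, E2F4 and E2F5 act mainly as repressors with pocket proteins, E2F6 represses within a polycomb complex, and E2F7 and E2F8 are atypical repressors that bind DNA without a DP partner. In squamous carcinoma cells, as in most tumor cells, the brake by the pocket proteins is commonly weakened. A miRNA guides AGO2 to transcripts mainly through its seed, so a transcript paired with an added miRNA can become more abundant in the AGO2-bound fraction and less abundant in total RNA.

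The mature sequence of miR-634 is shown because it defines what was added to the cells. It is given as in RefSeq, from chr17:66787132-66787153 of GRCh38.p14 on the plus strand, with the seed (bases 2 to 8) in capitals.
miR-634: aACCAGCAccccaacuuuggac
Of the 2545 mature human miRNAs in the table used, 1 carried this seed. Transcript sequences were not used here, so pairing of the seed with the E2F and TFDP transcripts was not examined.

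Levels are log2 intensities minus the 75th percentile of the array over the probes well above background on all arrays. A level therefore compares a probe with itself across arrays, and no level is set against that of another probe. The enrichment (RIP/input) is the level in RIP minus that in input. The fold change of enrichment is the enrichment in miR-634-overexpressing cells minus that in miR-NC-overexpressing cells, on the log2 scale. A change was called with an adjusted p under 0.05 by limma, adjusted over all measured genes. The arrays shared 1 slide and 1 scan, and the input and RIP arrays lay in different rows and the miR-NC and miR-634 arrays in different columns, so position and group cannot be told apart. Signal also moved with the groups. Between 45.6% and 45.8% of spots were well above background on the input arrays, against 33.6% and 34.5% for RIP of miR-NC cells and 40.0% on each RIP array of miR-634 cells. All 7 markers of epidermoid carcinoma cells (EGFR, KRT5, KRT14, KRT17, TP63, SFN and CDH1) were well above background on all input arrays, and none of 6 markers of other cells was. Of those 6, CD3E, ALB, COL3A1 and PECAM1 were so on no input array, PTPRC on 3 and COL1A1 on 1.

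In miR-NC-overexpressing cells, the transcripts of all 8 E2F genes were enriched in the AGO2-bound fraction relative to the bulk of the transcripts and those of both TFDP genes were depleted, and with spike-in scaling the direction of 7 of the 8 E2F genes turned. The median enrichment of the 8 E2F genes was 1.61 on the log2 scale, against -0.12 over all measured genes. Among all measured genes, 33.5% were called higher in RIP than in input and 45.3% lower. In miR-634-overexpressing cells, 7 E2F genes were called enriched and none depleted, with a median of 0.98. The background there was 36.1% of genes higher and 48.3% lower, with a median of -0.17. When the arrays were scaled to 8 spike-in probes, the enrichment in miR-NC cells of every E2F gene but E2F5 lay between -1.66 and -0.26, and that of E2F5 was 0.05. The median of all measured genes was then -2.57, with 70 genes called higher and 10709 lower. In miR-634 cells, this scaling put E2F1, E2F4, E2F5, E2F7 and E2F8 below 0, from -1.39 to -0.0237, and called 2 of the 10 genes higher and 6 lower. There the median of all measured genes was -1.58, with 752 called higher and 9091 lower. All 8 E2F genes lay above the median gene in both kinds of cells. Spike-in scaling shifts all genes of an array by the same amount, so it could not change this. The median spike-in level over the 75th percentile was 1.15 and 1.08 for miR-NC input and 1.15 and 1.56 for miR-634 input. It lay between 3.52 and 3.60 for RIP of miR-NC cells and between 2.75 and 2.77 for RIP of miR-634 cells. The shift of input with spike-in scaling thus came mainly from miR-634 input array 2. The part of these differences in the results was not tested.

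**Figure D1:**
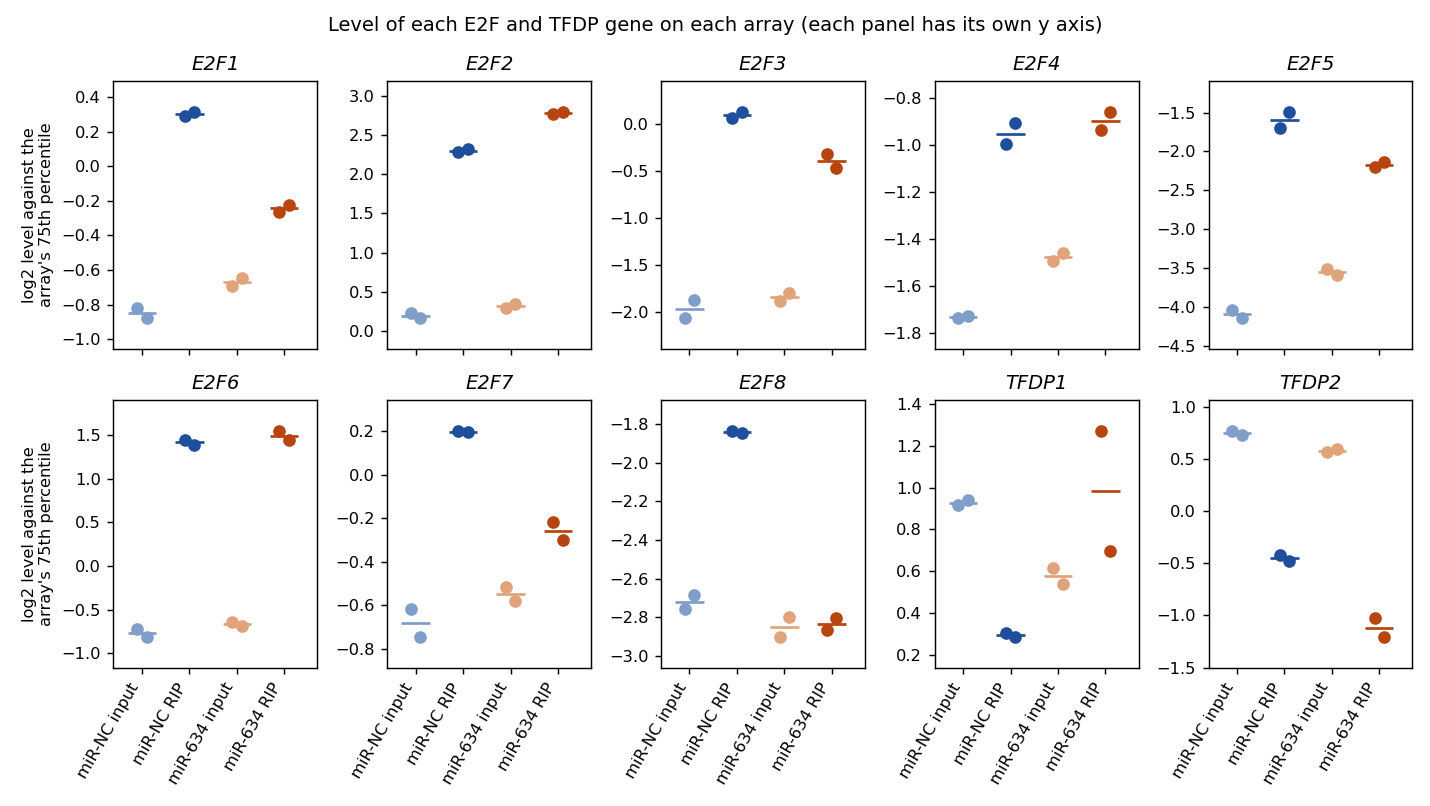
Log2 level of each E2F and TFDP gene relative to the 75th percentile of the array (y axis, a separate scale for each gene) in the 4 groups (x axis). Points are single arrays, with array 1 on the left, and lines are group means of 2 arrays. In all 8 E2F genes both miR-NC RIP points lie above both miR-NC input points (with spike-in scaling the means of 7 of them turn), whereas in TFDP1 and TFDP2 they lie below.

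After miR-634 overexpression, the enrichment changed in 9 of the 10 genes and mostly fell relative to the other transcripts, a direction that turned with spike-in scaling for all of the falling genes but E2F5. Limma called a lower enrichment in 7 genes (E2F1, E2F3, E2F4, E2F5, E2F7, E2F8 and TFDP2) and a higher one in E2F2 and TFDP1, whereas E2F6 was not called. Across all measured genes, 43.2% were called lower and 28.1% higher. The median fold change of enrichment was -0.54 over the 10 genes and -0.22 over all measured genes. With spike-in scaling, the median of all genes moved to 0.83, and 4 of the 10 genes (E2F2, E2F4, E2F6 and TFDP1) were called higher and 0 lower. Of all 10959 measured genes, this scaling called 6993 higher and 203 lower. Relative to the median gene, the changes ranged from -0.91 for E2F5 to 1.26 for TFDP1. On that scale E2F4 did not fall (0.0139), and the falls of the other called genes were smaller. TFDP1 is among the targets the study selected with these arrays, so its direction is not independent evidence.

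Total RNA of the 10 genes changed less. The input level was called higher in E2F1, E2F4 and E2F5 and lower in none, against a background of 11.6% higher and 12.1% lower. With spike-in scaling, where the input shift came mainly from miR-634 input array 2, none of these genes was called higher and E2F1 turned. The dimmer TFDP1 probe, which does not enter these counts, was called lower. By an unadjusted p under 0.05 in limma, 5 of the 10 genes passed, against 4100 of the 10959 measured genes. Because the cells were measured in bulk, fewer cells with a transcript and less transcript per cell cannot be told apart. The level in RIP was called higher in E2F2 and TFDP1 and lower in 6 genes, against a background of 30.9% higher and 46.5% lower. E2F4 and E2F6 were the 2 genes not called in RIP. All of these comparisons share arrays, so the values of a gene are not independent of each other.

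**Figure D2:**
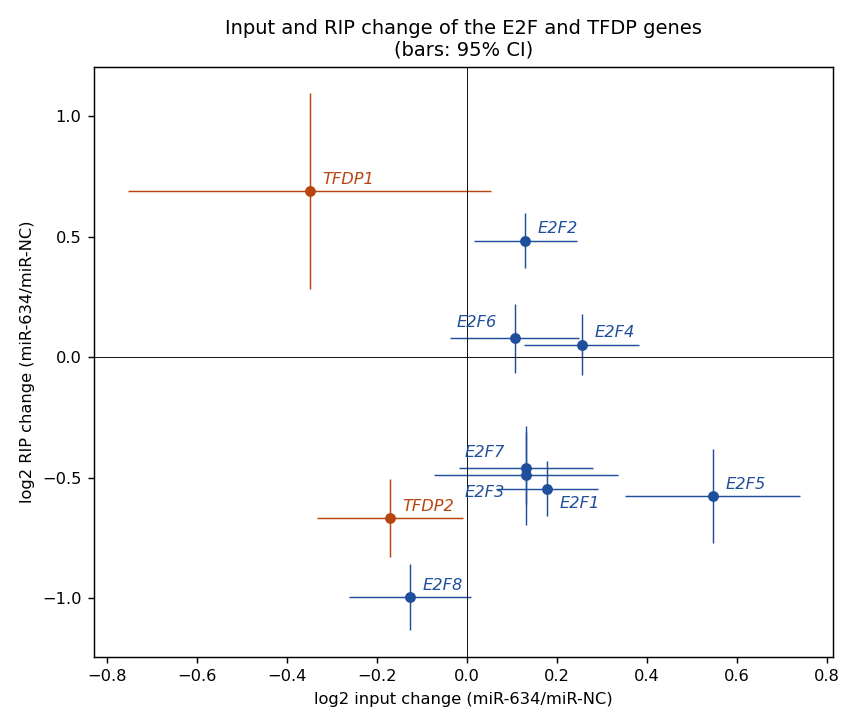
Change of the input level (x axis) and of the RIP level (y axis) between miR-634 and miR-NC cells, both log2, with 95% confidence intervals from limma (2 arrays per group). TFDP1 is the only point with a negative input change and a positive RIP change, and E2F1, E2F3, E2F5 and E2F7 have a positive input change with a negative RIP change, which spike-in scaling turns positive in all 4.

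The activator E2F1 (chr20:33675477-33686385, GRCh38.p14) is known both for driving S phase genes and for inducing apoptosis genes. Its log2 level was -0.82 and -0.88 in miR-NC input and 0.29 and 0.31 in miR-NC RIP. It was -0.70 and -0.65 in miR-634 input and -0.26 and -0.22 in miR-634 RIP. The groups did not overlap, and RIP was above input in both kinds of cells. Enrichment was 1.15 (SE 0.05) with miR-NC and 0.43 (SE 0.05) with miR-634, both called. Its fold change of enrichment was -0.72 (SE 0.07, adjusted p = 0.000121), which on the linear scale is 0.606 times the enrichment in miR-NC cells. The arrays numbered 1 gave -0.68 and those numbered 2 gave -0.77. Total E2F1 RNA was slightly higher in miR-634 cells, by 0.18 (adjusted p = 0.0389), whereas the RIP level fell by 0.54 (adjusted p = 6.09e-05). The input call was lost without any 1 of the 4 input arrays (adjusted p from 0.102 to 0.201), and over all alternatives the adjusted p ranged from 0.0223 to 0.836.

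E2F2 (chr1:23505212-23531233), the second activator, was the E2F gene whose enrichment rose. Its level was 0.23 and 0.16 in miR-NC input, 2.28 and 2.32 in miR-NC RIP, 0.30 and 0.35 in miR-634 input, and 2.77 and 2.79 in miR-634 RIP. Both miR-634 RIP arrays were above both miR-NC RIP arrays. Enrichment went from 2.10 to 2.46, both with an SE of 0.05, a fold change of enrichment of 0.35 (SE 0.07, adjusted p = 0.00316) or 1.28 times. The RIP level rose by 0.48 (adjusted p = 0.00011), and the input change of 0.13 was not called (adjusted p = 0.098). The enrichment of E2F2 was above that of 97.9% of the measured genes in miR-NC cells and of 97.4% in miR-634 cells. With spike-in scaling, the fold change of enrichment of E2F2 was 1.40 and was called, as were 6993 of all 10959 measured genes in this direction. This scaling raised the value of every gene by the same amount, so a rise could not turn.

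E2F3 (chr6:20401879-20493714) completes the activators and showed the opposite change. Its brighter probe was at -2.07 and -1.87 in miR-NC input, 0.06 and 0.13 in miR-NC RIP, -1.88 and -1.79 in miR-634 input, and -0.32 and -0.47 in miR-634 RIP. The miR-634 RIP arrays were below the miR-NC RIP arrays, and the input groups lay close together. Enrichment was 2.06 with miR-NC and 1.44 with miR-634 (SE 0.08 for both). This is a fold change of enrichment of -0.62 (SE 0.12, adjusted p = 0.0035), or 0.65 times. Its input change of 0.13 was not called (adjusted p = 0.313). The dimmer E2F3 probe was well above background on 6 of the 8 arrays and on neither miR-NC RIP array, so no fold is given for it.

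**Figure D3:**
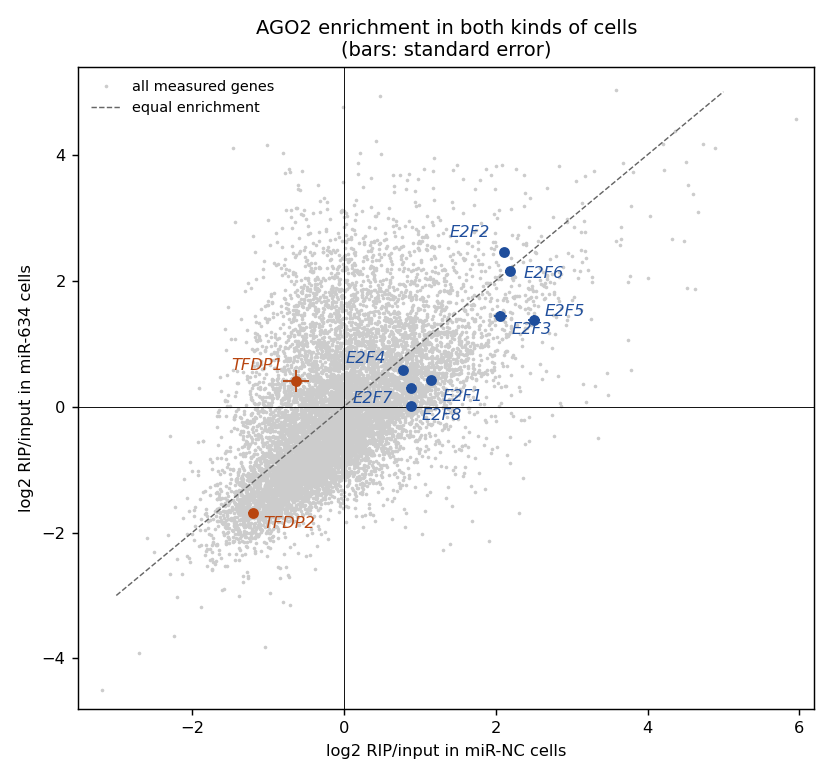
Log2 enrichment (RIP/input) in miR-NC cells (x axis) against that in miR-634 cells (y axis) for all 10959 measured genes (gray), the E2F genes (blue) and the TFDP genes (orange), with bars for the standard error and a dashed line for equal enrichment. E2F2 and TFDP1 lie above the line, E2F6 lies close to it, and the other members lie below it. Spike-in scaling turns the direction of all these other members but E2F5. Relative to the median gene, E2F4 is not lower (0.0139).

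The pocket-protein-bound repressors E2F4 and E2F5 were both enriched in AGO2-RIP, which spike-in scaling turned for E2F4 in both kinds of cells and for E2F5 in miR-634 cells. E2F4 (chr16:67192155-67198918) was at -1.74 and -1.73 in miR-NC input and -0.996 and -0.905 in miR-NC RIP. It was at -1.50 and -1.46 in miR-634 input and -0.94 and -0.86 in miR-634 RIP, so the RIP groups overlapped while input was higher with miR-634. Its enrichment was 0.78 with miR-NC and 0.58 with miR-634. The fold change of enrichment of -0.20 (SE 0.08, adjusted p = 0.0483) lay at the median of all genes, 50.6% of which were lower. This call was lost without any 1 of the 4 input arrays, without miR-NC RIP array 2 and without miR-634 RIP array 1 (adjusted p from 0.0836 to 0.128), and also with the log2 values processed by the authors (-0.08). Over all alternatives the adjusted p ranged from 0.00511 to 0.879. In the limma fit over all probes, the same E2F4 probe had an adjusted p of 0.0527 and was not called. The input change of E2F4 was 0.25 (adjusted p = 0.0184), and the call was lost without any 1 of the 4 input arrays (adjusted p from 0.0737 to 0.105).

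E2F5, on chromosome 8, had the largest enrichment in miR-NC cells among the 10 genes and the largest fall. Its level was -4.05 and -4.15 in miR-NC input and -1.70 and -1.49 in miR-NC RIP. It was -3.51 and -3.59 in miR-634 input and -2.20 and -2.14 in miR-634 RIP. Input was thus higher and RIP lower on both miR-634 arrays than on both miR-NC arrays. Enrichment went from 2.50 to 1.38 (SE 0.08 for both), a fold change of enrichment of -1.12 (SE 0.11, adjusted p = 0.000186) or 0.46 times. This was below the value of all but 6.1% of the measured genes. The input change of 0.55 (adjusted p = 0.00574) was above that of 98.6% of the genes, and the RIP level fell by 0.58 (adjusted p = 0.000619). With spike-in scaling, E2F5 was the member whose fold change of enrichment stayed below 0 (-0.08), and it was not called there.

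E2F6 (chr2:11444375-11466161), the repressor of the polycomb complex PRC1.6, was enriched in both kinds of cells, though with spike-in scaling only in miR-634 cells. Its brightest probe was at -0.72 and -0.81 in miR-NC input, 1.44 and 1.39 in miR-NC RIP, -0.64 and -0.68 in miR-634 input, and 1.55 and 1.44 in miR-634 RIP. Enrichment was 2.18 with miR-NC and 2.16 with miR-634 (SE 0.06 for both), above 98.1% and 95.8% of the measured genes. The fold change of enrichment was -0.03 (adjusted p = 0.791), with a 95% confidence interval from -0.23 to 0.18. Its probes differed. The second probe of NM_198256 had a fold change of enrichment of 0.41 (SE 0.08, adjusted p = 0.00457), and the probe of NM_212540 had -0.12 (SE 0.14, adjusted p = 0.469). Relative to the median gene, the brightest probe was at 0.19. A direction for E2F6 therefore depended on the probe and on the scaling.

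The atypical repressors E2F7 and E2F8 both lost enrichment relative to the other transcripts, and with spike-in scaling both changes turned and neither was called. E2F7 (chr12:77021251-77065569) was at -0.61 and -0.74 in miR-NC input, 0.20 and 0.20 in miR-NC RIP, -0.51 and -0.58 in miR-634 input, and -0.22 and -0.30 in miR-634 RIP. Its enrichment went from 0.88 to 0.29 (SE 0.06 for both), a fold change of enrichment of -0.59 (SE 0.09, adjusted p = 0.00105) or 0.664 times. The dimmer probe of the same accession, at levels between -6.19 and -3.71, gave -0.81 (SE 0.27, adjusted p = 0.0336). Both E2F7 probes thus moved in the same direction, with a wider spread in the dim one. Its input change of 0.13 was not called (adjusted p = 0.177).

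E2F8 (chr11:19224063-19241655) was the E2F gene not called enriched after miR-634 overexpression relative to the bulk of the transcripts, whereas with spike-in scaling its enrichment there was -1.39 and those of E2F1, E2F4, E2F5 and E2F7 were below 0 as well. Its level was -2.76 and -2.69 in miR-NC input and -1.83 and -1.85 in miR-NC RIP. It was -2.90 and -2.80 in miR-634 input and -2.87 and -2.81 in miR-634 RIP, where the groups overlapped. Enrichment was 0.88 with miR-NC and 0.01 with miR-634 (SE 0.06, adjusted p = 0.824, 95% confidence interval -0.12 to 0.15). E2F8 thus had a fold change of enrichment of -0.87 (SE 0.08, adjusted p = 0.000119), or 0.548 times. The RIP level fell by 0.99 (adjusted p = 8.69e-06), the largest fall of RIP among the 10 genes, while the input change of -0.13 was not called (adjusted p = 0.155).

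TFDP1 (chr13:113584688-113641473) encodes the main DP partner of the E2F proteins. It was depleted in miR-NC cells and had the largest rise of enrichment among the 10 genes. Spike-in scaling shifts all genes by the same amount, so it could not change this order. The brighter TFDP1 probe was at 0.92 and 0.94 in miR-NC input and 0.30 and 0.29 in miR-NC RIP. It was at 0.62 and 0.54 in miR-634 input and 1.27 and 0.70 in miR-634 RIP. The miR-634 RIP arrays differed by more than any other pair for this probe, yet both were above both miR-634 input arrays and both miR-NC RIP arrays. Enrichment was -0.63 with miR-NC (SE 0.17, adjusted p = 0.0117) and 0.41 with miR-634 (SE 0.17, adjusted p = 0.0579). Its fold change of enrichment was 1.04 (SE 0.24, adjusted p = 0.0073), which is 2.06 times, with 1.27 from the arrays numbered 1 and 0.81 from those numbered 2. Without miR-634 RIP array 1 it was 0.75, and without array 2 it was 1.33, both called. The enrichment in miR-634 cells was 0.12 without array 1 and 0.69 without array 2, and it was called only in the latter. Likewise, the RIP change of 0.69 (adjusted p = 0.00841) was 0.40 without array 1 and 0.98 without array 2, both called.

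The dimmer TFDP1 probe, of the same accession NM_007111, varied less. Its level was -1.998 and -1.94 in miR-NC input, -2.10 and -2.28 in miR-NC RIP, -2.27 and -2.28 in miR-634 input, and -1.38 and -1.47 in miR-634 RIP. Here the miR-634 RIP arrays were above all the others. By this probe, the fold change of enrichment was 1.07 (SE 0.10, adjusted p = 0.000144), or 2.10 times, close to that of the brighter probe. Total TFDP1 RNA was lower in miR-634 cells by this probe (-0.30, adjusted p = 0.0294). For the brighter probe, both miR-634 input arrays were below both miR-NC input arrays. Limma uses a single spread per gene over all groups, and the SD of this probe was 0.02 and 0.06 in input but 0.41 in miR-634 RIP. By the brighter probe the input change was -0.35 (SE 0.17) and was not called (adjusted p = 0.184). It was called when either miR-634 RIP array was left out (adjusted p = 0.00806 for both), and over all alternatives its adjusted p ranged from 0.00806 to 0.436. Over all alternatives, the adjusted p of the fold change of enrichment ranged from 6.76e-13 to 0.0866, and it missed the threshold by the methods' t-test.

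TFDP2 (chr3:141944428-142149544), the other DP gene, moved the opposite way, except with spike-in scaling. Its level was 0.77 and 0.73 in miR-NC input, -0.42 and -0.48 in miR-NC RIP, 0.57 and 0.59 in miR-634 input, and -1.03 and -1.21 in miR-634 RIP. RIP was below input in both kinds of cells, and lowest on the miR-634 arrays. Enrichment was -1.20 with miR-NC and -1.70 with miR-634 (SE 0.07 for both), below that of all but 5.76% and 4.0% of the measured genes. The fold change of enrichment was -0.50 (SE 0.10, adjusted p = 0.00337), or 0.709 times. The input change of -0.17 was not called (adjusted p = 0.117). With spike-in scaling the fold change of enrichment of TFDP2 was 0.55 and was not called, and that of TFDP1 was 2.08 and was called.

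**Figure D4:**
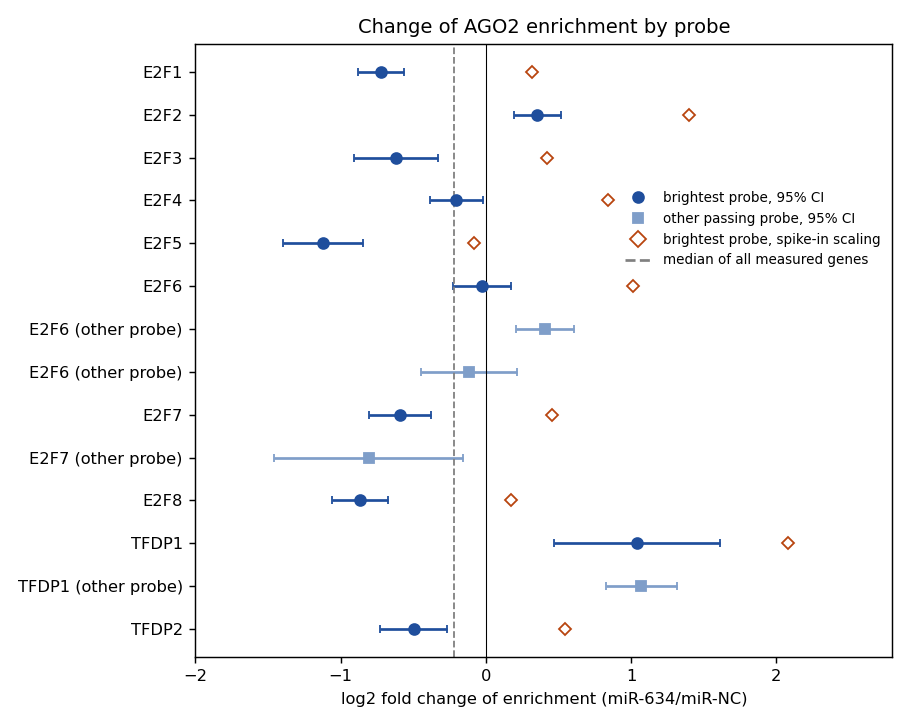
Fold change of enrichment on the log2 scale (x axis) of each probe that was well above background on all arrays (y axis), with 95% confidence intervals from limma. Open diamonds give the brightest probe after spike-in scaling, and the dashed line marks the median of all measured genes, -0.22. The pair of TFDP1 probes lies at 1.04 and 1.07, and the 3 E2F6 probes lie on both sides of 0. Spike-in scaling moves every brightest probe to the right by the same amount.

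Ordered by the fold change of enrichment, the genes ran from E2F5 through E2F8, E2F1, E2F3, E2F7, TFDP2, E2F4, E2F6 and E2F2 to TFDP1. The 95% confidence intervals of all neighbors in this order overlapped, except those of E2F6 and E2F2. The interval of E2F6 ended at 0.18, below the start of that of E2F2 at 0.19, and those of E2F2 and TFDP1 overlapped between 0.47 and 0.52. Differences between genes were not tested. Among the activators, E2F2 was called higher and E2F1 and E2F3 lower relative to the bulk of the transcripts, whereas with spike-in scaling all 3 values were above 0 and only that of E2F2 was called.

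By the Euclidean distance over the 4 group means, each gene centered on its own mean, the measured genes with a pattern most like that of TFDP1 were GTF2I (distance 0.0663), DDX6 (0.0881) and RRAS (0.0938). GTF2I encodes a general transcription factor, DDX6 a helicase of mRNA repression and decay, and RRAS a small GTPase. GTF2I has near-identical pseudogene copies, which its probe may also read. Their fold changes of enrichment were 0.98, 1.11 and 0.86, and their input changes were -0.27, -0.44 and -0.29. This likeness describes 10959 genes over 4 group means of 2 arrays and was not tested.

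The promoters of the E2F genes are themselves known to carry E2F sites, which is how E2F activity feeds back on these genes. The 4 words TTTGGCGC, TTTCGCGC, TTTCCCGC and TTTGCCGC of the E2F site were searched on both strands in RefSeq promoters (GRCh38.p14) from 250 bases before to 50 after each start. Of 8 members with a promoter that was used, 4 held such a word, against 582 of 8755 measured genes (6.65%) and 1164 of all 35116 promoters (3.31%). The stretches are shown because they are the only parts of these promoters that match, with the word in capitals and read on the strand of the word.
E2F1, word at -20 from the start: caaaaaggaTTTGGCGCgtaaaagtg
E2F1, word at -33, opposite strand: caaatccttTTTGCCGCgaaagagcc
E2F2, word at -42: ggcacgacgTTTGGCGCtaaaaaaaa
E2F3, word at -53, opposite strand: aaactcggaTTTCCCGCcggcttttc
TFDP1, word at -120, opposite strand: tgcgcgcctTTTCGCGCcttcggcgc
The promoters of E2F4, E2F6, E2F7 and TFDP2 held none of these words, nor did another promoter of E2F3. Those of E2F5 and E2F8 were not used here. Distances count from the start of the promoter used, which for TFDP1 lies downstream of the start of the gene range given above. The match is a description of letters in a window. Of the 4 genes with a word, E2F1 was called higher in input and E2F2, E2F3 and TFDP1 were not called.

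The counts of the pathway lists stand beside a background, over all measured genes, of 28.1% called higher and 43.2% lower in fold change of enrichment, and of 11.6% higher and 12.1% lower in input. Among the regulators above E2F, all 3 pocket proteins were called lower relative to the other transcripts, though none was with spike-in scaling. Their median was then 0.42, against 0.83 over all measured genes. The fold change of enrichment was -0.59 for RB1, the retinoblastoma protein (adjusted p = 0.000203), -0.66 for RBL1 and -0.62 for RBL2. None of them was called in input, with changes from 0.06 to 0.13. Relative to the bulk of the transcripts, all 3 were depleted from RIP in both kinds of cells, with an enrichment from -0.61 to -0.25 in miR-NC cells. Among 13 measured cyclins, CDKs and CDK inhibitors upstream of the pocket proteins, 10 were called lower and 2 higher in fold change of enrichment, with a median of -0.62 against -0.22 for all genes. The CDK inhibitor CDKN1B (-1.77) and the D-type cyclin CCND3 (-1.51) had the largest falls, and the inhibitor CDKN2D (2.04) and the kinase CDK4 (0.66) had the rises. In input, 5 of these 13 genes were called higher and 1 lower, led by the CDK inhibitor CDKN1A at 1.29 (SE 0.19, adjusted p = 0.00612). The CDKN1A probe was dim, at -6.37 and -5.74 in miR-NC input and -4.85 and -4.68 in miR-634 input. The 1 lower gene was the inhibitor CDKN1C (-0.51, adjusted p = 0.0046). With spike-in scaling, 3 of the 13 genes were called higher in enrichment and 1 lower, against 6993 and 203 of all 10959 measured genes.

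The complexes in which E2F proteins act were described in the same way, against 43.2% of all measured genes called lower and 28.1% higher. Of 7 measured genes of the MuvB core and its MYB and FOXM1 partners, a core that forms the DREAM complex with E2F4 and a pocket protein in resting cells, 5 were called lower and 1 higher (median -0.57). The histone chaperone RBBP4 (-0.75) and LIN37 (-0.66) fell, and MYBL1, which encodes A-MYB (1.14), rose while its input fell by 0.45 (adjusted p = 0.00732). LIN54, the DNA-binding subunit, had the largest rise of input (0.27, adjusted p = 0.012). Of 9 measured genes of the E2F6 complex PRC1.6, 5 were called lower and 2 higher (median -0.37). PCGF6 (-0.93) and MAX (-0.72) fell, whereas WDR5 (1.52) and the ubiquitin ligase RING1 (0.44) rose. The input of WDR5 fell by 0.30 (adjusted p = 0.00789). With spike-in scaling, 2 of the 7 genes and 5 of the 9 genes were called higher and none lower. Of all 10959 measured genes, 6993 were then called higher and 203 lower.

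Among 10 measured cofactors and turnover factors of E2F proteins, 4 were called lower and 1 higher (median -0.10), a share called lower that is near the background of 43.2%. EAPP, an E2F-associated phosphoprotein, had -1.21, and SKP2, the F-box protein that targets E2F1, had -0.74. FZR1, an activator of the anaphase-promoting complex, rose by 0.55. NPDC1 was the 1 gene of this list called in input (0.28, adjusted p = 0.00661). With spike-in scaling, 7 of these 10 genes were called higher, against 6993 of all 10959 measured genes.

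**Figure D5:**
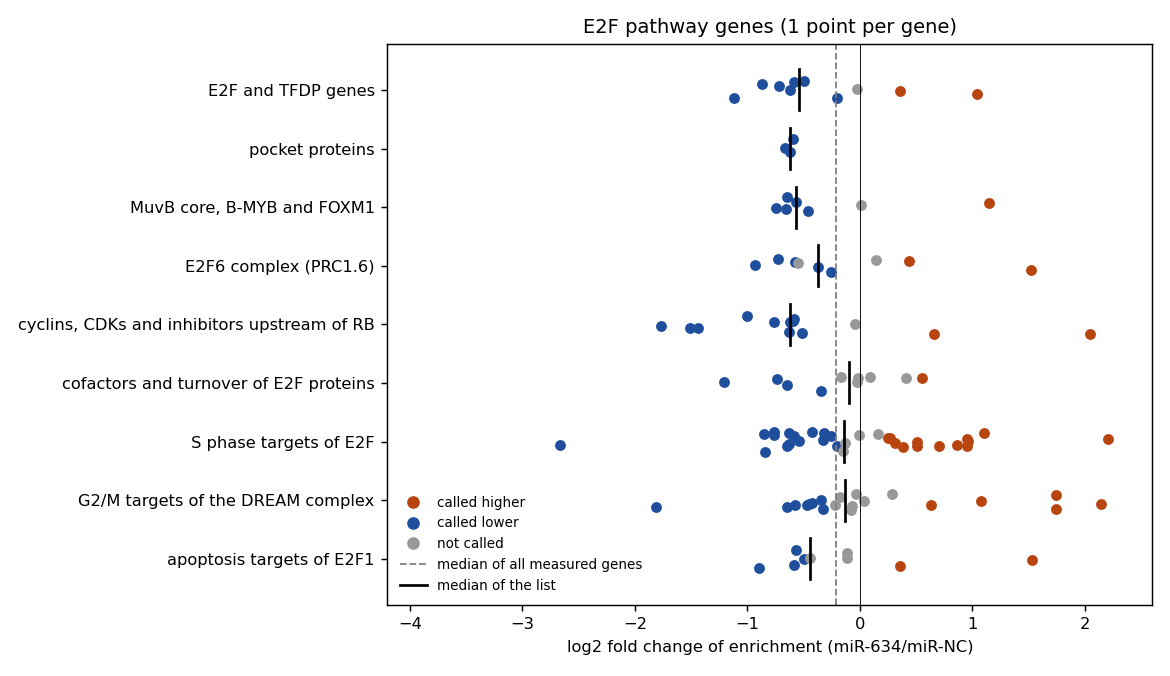
Fold change of enrichment on the log2 scale (x axis) of every measured gene of the E2F and TFDP genes and of 8 lists of the E2F pathway (y axis), 1 point per gene. Colors give the call by limma, black bars the median of each list and the dashed line the median of all measured genes, -0.22. The pocket proteins lie together between -0.66 and -0.59, and the S phase and G2/M targets spread on both sides of 0. With spike-in scaling the median of every list is above 0, as is that of all measured genes (0.83).

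The targets of E2F were called in both directions. Of 32 measured S phase targets, 13 were called higher and 15 lower, against 28.1% and 43.2% of all measured genes, with a median of -0.14 against -0.22. RRM2, a subunit of ribonucleotide reductase, rose by 2.20 (SE 0.18, adjusted p = 6.99e-05), and ORC1, of the origin recognition complex, by 1.10. RFC4, a subunit of the clamp loader, had -2.67 (SE 0.07, adjusted p = 9.26e-07), and the histone methyltransferase EZH2 had -0.86. In input, limma called 2 of the 32 genes higher and 5 lower, against a background of 11.6% and 12.1%. Cyclin E1, CCNE1, rose by 0.29 (adjusted p = 0.00974), and the phosphatase CDC25A fell by 0.68 (adjusted p = 0.000816). With spike-in scaling, limma called 22 of the 32 genes higher in enrichment and 1 lower, against 6993 and 203 of all 10959 measured genes.

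Of 20 measured G2/M targets of the DREAM complex, 5 were called higher and 8 lower (median -0.13), shares near the background of 28.1% and 43.2%. Cyclin B1, CCNB1, rose by 2.15 and the apoptosis inhibitor BIRC5 by 1.75, whereas the checkpoint kinase BUB1 had -1.82 and cyclin A2, CCNA2, had -0.65. In input, 2 of these genes were called higher and 3 lower, against 11.6% and 12.1% of all genes, with KIF23 at 0.25 (adjusted p = 0.0235) and BIRC5 at -0.35 (adjusted p = 0.00449). BIRC5 is a known target of miR-634 that the study also read on these arrays, so its direction is not independent evidence. Of 9 measured apoptosis targets of E2F1, 2 were called higher and 4 lower (median -0.45), also near that background. HRK, an activator of mitochondrial apoptosis, rose by 1.53 while its input fell by 0.46 (adjusted p = 0.0312). BCL2L11 (-0.90) and CDKN2A (-0.59) fell, and PMAIP1 was called higher in input (0.24, adjusted p = 0.0477). With spike-in scaling, 15 of the 20 G2/M genes and 5 of the 9 apoptosis genes were called higher, against 6993 of all 10959 measured genes.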

How the data were processed

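Each array was a single-color Agilent gene expression array. Spot intensities deposited by the authors came from Agilent Feature Extraction, which had subtracted background and spatial trends. The authors also deposited log2 values processed in GeneSpring, with settings that are not given in the sources used here. Per the labels the version of Feature Extraction was 9.1, whereas the file headers give 12.0.1.1. The deposited log2 values correlated at 0.999998 or more with the log2 intensity minus the 75th percentile over all probes, centered on the median of each probe, which gives their scale, centering and direction, and were used as an alternative. Their column medians lay between -0.44 and -0.38 for input and between 0.32 and 0.88 for RIP.

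Here, control and outlier spots were left out, replicate spots were averaged, and log2 intensities were shifted by the 75th percentile of each array over the 16808 probes (28.9%) well above background on all 8 arrays. No spot was saturated. RefSeq (GRCh38.p14) gave a symbol for 31104 of the 33080 probes that carry a RefSeq accession, and it is also the source of the coordinates, since the design file of the array uses hg19. The brightest probe well above background on all arrays stood for a gene. For contrasts of the 4 group means, lmFit and eBayes of limma 3.58.1 (R 4.3.3) were used, with Benjamini-Hochberg adjustment over 10959 genes. The median SD of log2 levels between arrays was 0.04 in both input groups and 0.06 in both RIP groups. The number of arrays limits the precision. Scripts were tested on simulated data.

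The members and the 8 pathway lists were chosen with earlier results of these data known. Genes named from each list are the 2 largest rises and falls of the fold change of enrichment and the largest rise and fall of input among called genes, with RB1, RBL1 and RBL2, the members with every probe, and the 3 genes nearest to TFDP1, and 1 gene that this rule names is not reported here. LIN52, L3MBTL2, RYBP, YAF2, CCND2, CDKN2B, HCFC1, CDC6, POLA2, PLK1, TP73 and APAF1 were not among the measured genes. CCNE1, CCNE2, CCNA2, CDC20 and CDKN2A stand in more than 1 list. Because all arrays were on 1 slide, no slide block was fitted. Plots used matplotlib 3.10.9 under Python 3.11.15.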

Additional observations from a re-analysis of the deposited data

Results flagged for a closer look

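The enrichment (RIP/input) differed between miR-634 and miR-NC cells, by limma's test of the difference itself, in 9 of the 10 genes. The log2 difference was -0.72 for E2F1, 0.35 for E2F2, -0.62 for E2F3, -0.20 for E2F4, -1.12 for E2F5, -0.59 for E2F7, -0.87 for E2F8, 1.04 for TFDP1 and -0.50 for TFDP2. The same test called 28.1% of all measured genes higher and 43.2% lower. No group had enough arrays to look for a single outlying array.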

How the results depend on the processing

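Among the alternatives without spike-in scaling or centering on the median gene, 950 member values kept their direction and their side of the threshold, 40 lost the call, 21 gained one and 9 reversed. With spike-in scaling 30 of 50 values reversed. The all-gene counts of the fold change of enrichment were 3079 higher and 4730 lower (39.4% of calls higher), 6993 and 203 with spike-in scaling (97.2%), 3289 and 3665 by the authors' values (47.3%), 3280 and 3666 when the 75th percentile was taken over all probes (47.2%), 3844 and 3349 after centering on the median gene (53.4%), and 3292 and 8658 of 22434 genes without the filter (27.5%). In input the calls were 48.9% higher, against 61.7% with the authors' values (1071 and 664), and spike-in scaling gave 26 higher and 956 lower and no filter 370 and 570. Without 1 input array, 394 to 517 genes were called higher and 549 to 688 lower in input.

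Over all measured genes, spike-in scaling called 6862 higher and 436 lower in RIP. In enrichment, it called 70 of them higher and 10709 lower in miR-NC cells, and 752 higher and 9091 lower in miR-634 cells. Of the 10 members, it called 4 higher and 0 lower in fold change of enrichment, 0 higher and 1 lower in input, and 4 higher and 0 lower in RIP. It called 0 members higher and 6 lower in enrichment in miR-NC cells, and 2 higher and 6 lower in miR-634 cells. In RIP, the authors' values, the 75th percentile over all probes and centering each called 4 higher. The input calls higher were 1 without the filter and 0 by the methods' t-test after Benjamini-Hochberg. The methods' t-test called 1 member higher in fold change of enrichment both unadjusted and after Benjamini-Hochberg (4 lower in the latter), 2 lower in input unadjusted, and 1 higher in RIP in both forms. Leaving out 1 array gave 2 higher and 6 to 7 lower in fold change of enrichment, 1 to 3 higher and 0 to 2 lower in input (2 without either miR-634 RIP array), 2 and 6 in RIP, 8 and 2 in enrichment in miR-NC cells, and 7 to 8 and 1 in miR-634 cells.

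With spike-in scaling the fold change of enrichment reversed to 0.32 for E2F1, 0.42 for E2F3, 0.84 for E2F4, 1.02 for E2F6, 0.45 for E2F7, 0.18 for E2F8 and 0.55 for TFDP2. The input change reversed to -0.0655 for E2F1, -0.11 for E2F2, E2F3 and E2F7 and -0.14 for E2F6. These input values rest largely on miR-634 input array 2, the input array with the highest spike-in level over the 75th percentile. The RIP change reversed to 0.26 for E2F1, 0.31 for E2F3, 0.22 for E2F5, 0.34 for E2F7 and 0.13 for TFDP2. Enrichment in miR-NC cells reversed to -1.30 for E2F1, -0.34 for E2F2, -0.39 for E2F3, -1.66 for E2F4, -0.26 for E2F6 and -1.57 for E2F7 and E2F8. In miR-634 cells it reversed to -0.98 for E2F1, -0.82 for E2F4, -0.0237 for E2F5, -1.11 for E2F7, -1.39 for E2F8 and -0.997 for TFDP1. Centering reversed the fold change of enrichment to 0.0139 for E2F4 and 0.19 for E2F6. For E2F6 it also became 0.0919 with the authors' values, 0.0914 with the 75th percentile over all probes, 0.0883 with the mean of the probes, 0.0183 with median scaling and 0.41 by another probe. Leaving out 1 array gave it a range from -0.0818 to 0.0292, with values above 0 without miR-NC input array 2 or miR-634 RIP array 2. The enrichment of E2F8 in miR-634 cells ranged from -0.0389 to 0.0669 when 1 array was left out, and was below 0 without miR-634 input array 1 or miR-634 RIP array 2. The cause was not tested.

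With a replicate block, 2 members were called higher and 7 lower in fold change of enrichment, 2 and 0 in input, 2 and 6 in RIP, 8 and 2 in enrichment in miR-NC cells and 7 and 1 in miR-634 cells. Same-numbered arrays of different groups had deviations that correlated from -0.04 to 0.08. The highest values were those of input with RIP of the same kind of cells, 0.08 for miR-634 and 0.07 for miR-NC. Correlations this weak cannot decide whether same-numbered arrays came from the same transfection, since array noise may hide a shared origin. Across all genes the block gave 3073 higher and 4728 lower in fold change of enrichment and 1083 and 1178 in input. Signal over background limited the miR-NC RIP arrays most.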
